A study of Homo sapiens with 6 samples.

Results

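The 9 genes described here encode secreted glycoproteins of the extracellular matrix that bind cells as well as other matrix proteins: fibronectin (FN1), tenascin-C (TNC), tenascin-X (TNXB), periostin (POSTN), SPARC, the thrombospondins THBS1, THBS2 and COMP, and osteopontin (SPP1). They were chosen by symbol, with earlier results of these data known. The RefSeq transcript rows of each gene were summed, which gave 9 of the 23548 genes with a symbol in the count table. The study sequenced polyadenylated RNA of cultured dermal fibroblasts, the collagen-producing cells of human skin, as primary cells of 1 line. It put MyoD, the transcription factor that starts skeletal muscle differentiation, into these cells in its natural form and fused to VP64, a strong viral-derived activation domain, and set both against untreated cells. Its 3 groups had 2 libraries each.

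Untreated cells carried no MyoD construct by their label. In the WT-MyoD group a Tet-ON lentivirus carried mouse wild-type MyoD, and in the VP64-MyoD group the same kind of vector carried mouse MyoD with VP64 joined to its N-terminus through a serine-glycine linker. Both vectors also made dsRed-Express2, a red fluorescent protein, from the same transcript through a ribosomal skipping peptide. Transduced cells were kept under puromycin so that only they remained, brought to confluence, and harvested after 10 days in 3 µg/mL doxycycline, the inducer. Whether untreated cells also received puromycin or doxycycline is not said in the labels, so these steps and the MyoD forms cannot be told apart in a comparison with untreated cells. All 6 libraries came from 1 cell line, which limits what they say of other donors, and the study calls its replicates biological duplicates.

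Matricellular proteins sit in the matrix without forming its main load-bearing fibres, and they act by binding integrins and other receptors, growth factors and proteases. Fibronectin and tenascin-X lie nearer to structure: fibronectin is assembled by cells into fibrils on which other matrix is laid down, and tenascin-X associates with collagen fibrils in skin and tendon. In dermis, tenascin-C, periostin, THBS1 and osteopontin are best known for their rise in wounds and scars, and COMP and SPARC for their part in collagen fibre formation.

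Total counts per library lay between 40997586 and 53804224, and every count was even, so that each read pair had been counted as 2. The mouse MyoD transcript had 254 and 46 counts in the untreated libraries, 42900 and 41736 in WT-MyoD, and 5372 and 5056 in VP64-MyoD, so the 2 forms differed in transgene RNA as well as in the activation domain, and the 2 differences cannot be told apart. All 9 of the listed fibroblast markers were detected in every group, with a summed level of 43070 to 45470 CPM (counts scaled to a common library total) in untreated, 29630 to 33820 in WT-MyoD and 30870 to 33460 in VP64-MyoD libraries. Most of this sum was COL1A1 and COL1A2, and the 9 markers did not move together: with WT-MyoD 4 were higher (DCN, LUM, VIM and THY1) and 3 lower, at a median log2 change of -0.02, and with VP64-MyoD 2 were higher and 6 lower, at a median of -0.52. The 7 skeletal muscle markers summed to 3.91 to 4.13 CPM, 289 to 316 CPM and 2680 to 3083 CPM in the same order. These libraries came from whole cultures, so a smaller number of cells making a transcript and less of it per cell cannot be told apart. CPM were scaled by the TMM method and are shares of a library, not amounts per cell.

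MyoD binds a short DNA motif, the E-box, written CANNTG. Windows of 250 bases before to 50 after the members' RefSeq starts (build GRCh38.p14) were searched on both strands for CANNTG, for its forms CAGCTG and CACCTG, and for TATAAA, where the forms are subsets of CANNTG. A window was found for all 9 genes, with 2 starts for TNXB. Windows of the genes that the results below turn on are shown 5′ to 3′ on the gene's strand with the E-boxes in capitals: both TNXB starts because that gene fell the most with VP64-MyoD, POSTN and SPP1 because they moved in opposite directions with the 2 forms, and TNC because it fell the most with WT-MyoD.
TNXB long transcript, chr6:32109289-32109588, minus strand: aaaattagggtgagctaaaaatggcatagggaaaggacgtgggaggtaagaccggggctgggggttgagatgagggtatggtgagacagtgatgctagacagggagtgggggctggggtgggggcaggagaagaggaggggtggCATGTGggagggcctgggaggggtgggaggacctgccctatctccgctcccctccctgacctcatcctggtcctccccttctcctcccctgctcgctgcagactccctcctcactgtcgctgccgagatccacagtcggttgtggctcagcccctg
TNXB internal start, chr6:32046079-32046378, minus strand: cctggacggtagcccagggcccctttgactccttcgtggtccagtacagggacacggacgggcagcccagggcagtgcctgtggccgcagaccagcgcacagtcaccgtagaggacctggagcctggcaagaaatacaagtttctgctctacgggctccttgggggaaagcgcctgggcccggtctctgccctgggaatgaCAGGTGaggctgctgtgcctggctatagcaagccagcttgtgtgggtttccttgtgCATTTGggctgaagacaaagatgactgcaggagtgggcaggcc
POSTN, chr13:37598719-37599018, minus strand: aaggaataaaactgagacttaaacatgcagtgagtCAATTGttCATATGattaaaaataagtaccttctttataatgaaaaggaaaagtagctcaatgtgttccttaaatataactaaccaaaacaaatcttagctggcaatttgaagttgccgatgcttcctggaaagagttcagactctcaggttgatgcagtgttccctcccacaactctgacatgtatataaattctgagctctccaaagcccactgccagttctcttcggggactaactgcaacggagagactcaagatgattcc
SPP1, chr4:87975464-87975763, plus strand: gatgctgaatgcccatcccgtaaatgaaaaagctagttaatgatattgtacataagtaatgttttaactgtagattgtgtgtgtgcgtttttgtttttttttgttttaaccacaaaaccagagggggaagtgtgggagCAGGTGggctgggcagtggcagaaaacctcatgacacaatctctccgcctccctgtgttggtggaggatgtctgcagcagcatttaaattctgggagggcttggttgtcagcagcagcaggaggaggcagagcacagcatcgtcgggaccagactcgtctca
TNC, chr9:115118108-115118407, minus strand: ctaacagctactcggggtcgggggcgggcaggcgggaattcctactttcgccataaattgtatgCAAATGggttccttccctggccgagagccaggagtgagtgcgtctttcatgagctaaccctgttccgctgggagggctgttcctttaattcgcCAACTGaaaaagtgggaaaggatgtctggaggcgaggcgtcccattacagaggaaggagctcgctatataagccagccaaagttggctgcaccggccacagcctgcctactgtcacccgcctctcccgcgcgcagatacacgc

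The windows of TNC, POSTN and the TNXB internal start held 2 E-boxes each, those of the long TNXB start, SPARC, THBS2, COMP and SPP1 held 1 each, and those of FN1 and THBS1 held 0. CANNTG occurred in 68.68% of 35116 windows of the same length over all genes. The form CACCTG was found in the windows of SPP1 and of the TNXB internal start, in both as CAGGTG on the gene's strand, and 20.59% of all windows held it. CAGCTG was in 0 of the members' windows and in 17.95% of all windows. TATAAA was found 2 times for POSTN and 1 time for THBS2, against 11.53% of all windows with a match. A match of these letters is a description and not a binding site, and a window without one says nothing of MyoD at that gene.

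With WT-MyoD 8 of the 9 genes fell and 0 rose; with VP64-MyoD 6 fell, POSTN and SPP1 rose, and SPARC did not pass the test. Between the 2 forms, FN1, TNC, POSTN, SPARC and SPP1 were higher and TNXB and COMP lower with VP64-MyoD, and THBS1 and THBS2 did not pass the test. The calls are those of edgeR's quasi-likelihood test with an adjusted p under 0.05 over the 15778 genes that passed the count filter, which all 9 members did. The same test called 25.7% of all genes higher and 22.2% lower with WT-MyoD, 33.0% higher and 30.0% lower with VP64-MyoD, and 28.4% higher and 28.2% lower in VP64-MyoD against WT-MyoD. The median log2 change of the 9 genes was -0.93 with WT-MyoD, -0.68 with VP64-MyoD and 0.42 between the forms, against 0, 0.03 and 0.02 over all genes tested. The 0 members called higher with WT-MyoD were also 0 at an unadjusted p under 0.05, with DESeq2 and with limma-voom. Scaled by library totals alone, in place of TMM, all genes split into 5803 higher and 1876 lower calls with WT-MyoD, against 4057 and 3498 with TMM, and into 6788 and 3125 with VP64-MyoD, against 5210 and 4739. Both comparisons with untreated cells share the same 2 untreated libraries, so their values stand side by side here and are not independent. The fibroblast markers, in mixed directions, and the muscle markers given above also changed between the same groups, and their part in these results was not tested.

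Of all counts, the 9 genes together took 7.38% and 7.85% in the untreated libraries, 3.99% and 4.36% in those of WT-MyoD, and 5.88% and 5.59% in those of VP64-MyoD. Most of this was fibronectin, which alone took 5.17% and 5.53%, 2.65% and 2.93%, and 3.91% and 3.67%. The shares of the 3 groups did not overlap, and they were lowest with WT-MyoD.

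**Figure D1:**
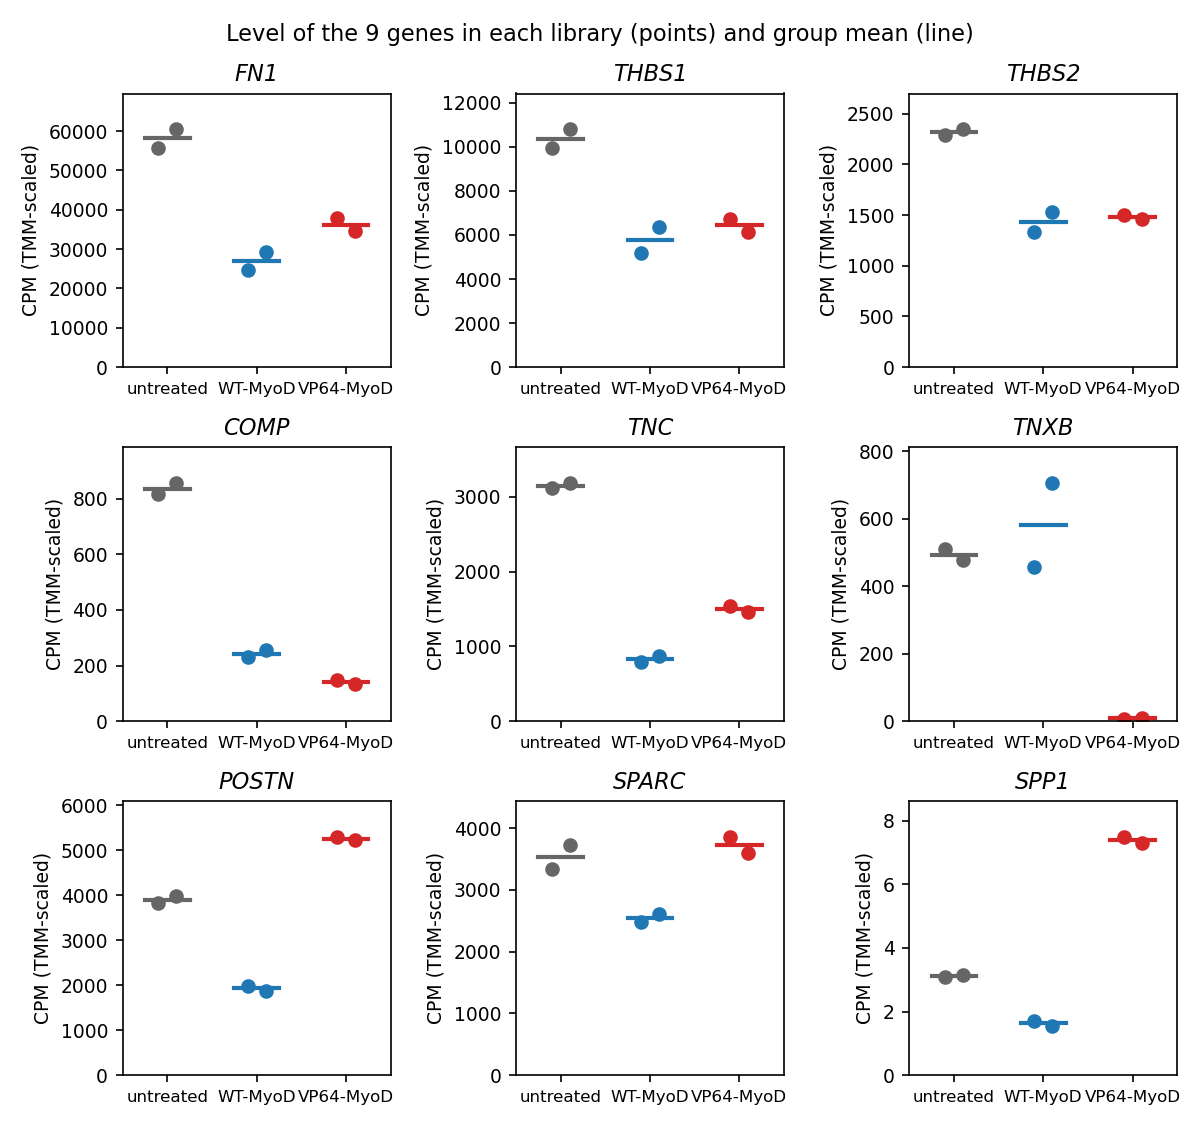
Level of each of the 9 genes (vertical axis, TMM-scaled CPM, from 0) in the 2 libraries of each group (points), with the group mean as a line. FN1, THBS1, THBS2, COMP and TNC were highest in untreated cells, TNXB lay at 7.82 and 8.70 CPM with VP64-MyoD, and POSTN and SPP1 were highest with VP64-MyoD and lowest with WT-MyoD.

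Fibronectin is a large dimeric adhesion protein that cells bind through integrins and stretch into fibrils. FN1 was at 55760 and 60470 CPM in untreated libraries, 24780 and 29230 in WT-MyoD libraries, and 37800 and 34610 in VP64-MyoD libraries. It had the most counts of all genes in each of the 3 groups, and no library of one group reached the range of another. FN1 fell with WT-MyoD by 1.11 on the log2 scale (SE 0.097, edgeR adjusted p = 1.06e-07), a level 2.15-fold lower. With VP64-MyoD it fell by 0.68 (SE 0.096, edgeR adjusted p = 1.59e-05), a level 1.61-fold lower. Between the forms FN1 was higher with VP64-MyoD, at a log2 change of 0.42 (SE 0.096, edgeR adjusted p = 0.0015). FN1 overlaps ATIC, whose own counts lay between 1902 and 3518 per library.

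Fibronectin RNA is spliced into forms with or without the extra domains EDB and EDA, which are rare in plasma fibronectin and are known from wounds and embryonic tissue. The table has 6 FN1 rows, and 1 of the 5 long ones, NM_212482, holds the 273-base EDB exon, while 3 of them, NM_002026, NM_212478 and NM_212482, hold the 270-base EDA exon. Of the counts of the 5 long rows, the row with EDB took 20.61% and 20.66% in untreated libraries, 20.79% and 20.68% in WT-MyoD libraries, and 21.44% and 21.41% in VP64-MyoD libraries. Both VP64-MyoD libraries lay above the 4 others, and the exact 95% binomial intervals, which cover counting error only, ran from 21.33% to 21.53% for VP64-MyoD against at most 20.89% in the others. The 3 rows with EDA took 60.91% and 60.86%, 60.88% and 60.77%, and 61.96% and 61.91% in the same order of libraries. The rows NM_212474 and NM_212476 hold neither exon. The ratio of NM_212482 to NM_212474 was 1.08 and 1.08 in untreated libraries, 1.09 and 1.08 in WT-MyoD libraries, and 1.16 and 1.16 in VP64-MyoD libraries, and its ratio to NM_212476 was 1.03 and 1.03, 1.04 and 1.03, and 1.09 and 1.09 in the same order. For the rows with EDA alone, NM_002026 to NM_212474 was 1.06 and 1.06, 1.06 and 1.06, and 1.11 and 1.11. The ratio of NM_212478 to NM_212476 was 1.00 and 0.99, 0.99 and 0.99, and 1.02 and 1.02. The rows share most of their sequence and also differ in the variable region and at their ends, so how the counter divided the reads sets these shares, and they are not shares of molecules. They were not tested.

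**Figure D2:**
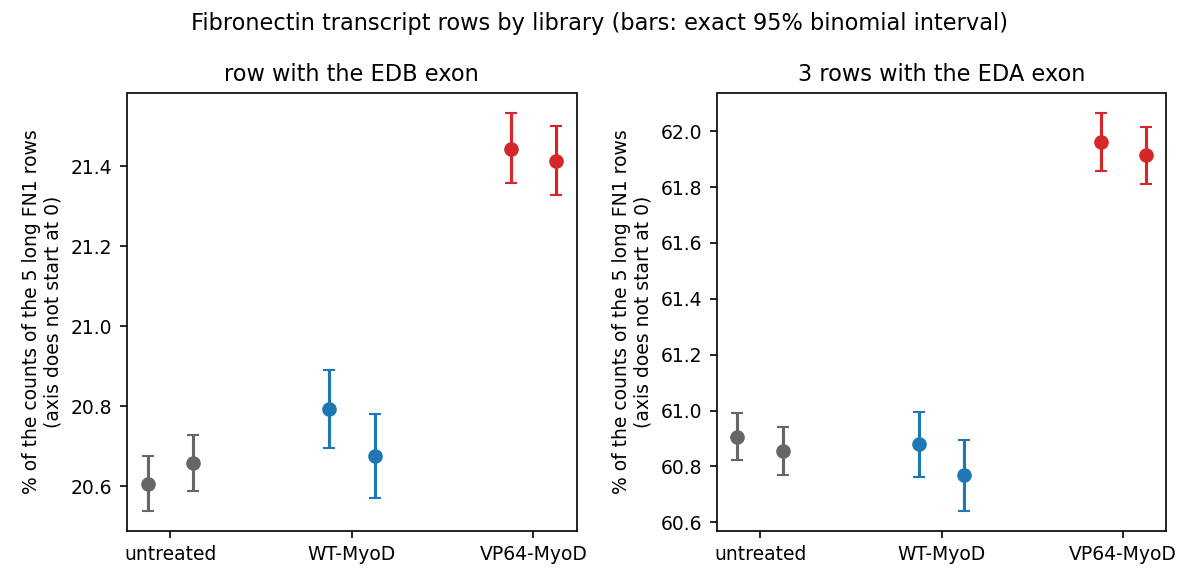
Share of the counts of the 5 long FN1 rows (vertical axes, percent, not starting at 0) that fell on the row with the EDB exon (left) and on the 3 rows with the EDA exon (right) in each library, with exact 95% binomial intervals as bars. The 2 VP64-MyoD libraries lie above the 4 others in both panels, at 21.44% and 21.41% and at 61.96% and 61.91%.

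Thrombospondins are multimeric calcium-binding proteins. THBS1 activates latent TGF-beta and inhibits the growth of blood vessels, THBS2 shares the second of these roles and helps to order collagen fibrils, and COMP, also called thrombospondin-5, bridges collagen fibrils in cartilage, tendon and skin. All 3 fell with both forms of MyoD.

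THBS1 was at 9935 and 10800 CPM in untreated libraries, 5159 and 6376 in WT-MyoD libraries, and 6716 and 6149 in VP64-MyoD libraries. The untreated libraries lay above all others, and the 2 MyoD groups overlapped. THBS1 fell by 0.85 on the log2 scale with WT-MyoD (SE 0.097, edgeR adjusted p = 2.56e-06) and by 0.69 with VP64-MyoD (SE 0.097, edgeR adjusted p = 1.62e-05). The difference between the forms was 0.16 (95% interval -0.05 to 0.36, edgeR adjusted p = 0.181). Without WT-MyoD replicate 2 that difference was 0.30 (edgeR adjusted p = 0.000713), and over all alternatives its adjusted p ran from 0.000713 to 0.895. THBS1 overlaps FSIP1, which had 16 to 106 counts per library.

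THBS2 was at 2288 and 2347 CPM in untreated libraries, 1335 and 1534 in WT-MyoD libraries, and 1497 and 1457 in VP64-MyoD libraries. Here too the untreated libraries stood above the others while the MyoD groups overlapped. The log2 change was -0.69 with WT-MyoD (SE 0.077, edgeR adjusted p = 1.68e-06) and -0.65 with VP64-MyoD (SE 0.077, edgeR adjusted p = 2.41e-06). Between the forms it was 0.04 (95% interval -0.12 to 0.21, edgeR adjusted p = 0.663).

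COMP was at 814.7 and 855.0 CPM in untreated libraries, 231.6 and 253.9 in WT-MyoD libraries, and 149.5 and 135.2 in VP64-MyoD libraries. The 3 groups were apart in this order. COMP fell 3.44-fold with WT-MyoD, with a log2 change of -1.78 (SE 0.073, edgeR adjusted p = 1.11e-11), and 5.87-fold with VP64-MyoD, with a log2 change of -2.55 (SE 0.076, edgeR adjusted p = 1.34e-13). The level with VP64-MyoD was also below that with WT-MyoD, at a log2 change of -0.77 (SE 0.072, edgeR adjusted p = 2.67e-07). Of all genes tested, 1.53% had a lower log2 change than COMP with WT-MyoD and 1.06% with VP64-MyoD.

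COMP is best known from cartilage and tendon, so markers of these tissues were read beside it. The 4 tendon markers summed to 82.9 to 87.0 CPM in untreated, 19.1 to 21.2 in WT-MyoD and 10.5 to 13.9 in VP64-MyoD libraries. TNMD was at 0 in all 6 libraries, 2 of the 4 passed the count filter, and MKX, a transcription factor of tendon, made up nearly all of the sum, with means of 84.93, 20.09 and 11.73 CPM. Of these 2, MKX was lower with both forms. The other, SCX, was higher with VP64-MyoD and not called with WT-MyoD, at low means of 0.020, 0.042 and 0.465 CPM. The 7 cartilage markers summed to 40.2 to 43.9, 46.7 to 52.6 and 21.5 to 22.2 CPM, COL9A1 was at 0 throughout, and 4 of the 7 passed the filter. With WT-MyoD 2 of these 4 were higher, among them ACAN at means of 15.45 and 42.44 CPM, and 2 were lower, SOX9 and MATN3, and with VP64-MyoD 3 of the 4 were lower. The part of these cells in the change of COMP was not tested.

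Tenascins are large proteins with repeated fibronectin-type domains. Tenascin-C loosens cell adhesion and is made in wounds, tumours and developing tissue, and tenascin-X stabilises collagen in the dermis, where its loss causes a form of Ehlers-Danlos syndrome. The 2 genes differed in how they followed the MyoD forms.

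TNC was at 3117 and 3184 CPM in untreated libraries, 793.7 and 874.2 in WT-MyoD libraries, and 1538 and 1460 in VP64-MyoD libraries. The groups did not overlap, and WT-MyoD was lowest. TNC fell 3.78-fold with WT-MyoD, with a log2 change of -1.92 (SE 0.075, edgeR adjusted p = 6.23e-12), and 2.10-fold with VP64-MyoD, with a log2 change of -1.07 (SE 0.074, edgeR adjusted p = 4.29e-09). Between the forms it was 1.80-fold higher with VP64-MyoD, at a log2 change of 0.85 (SE 0.073, edgeR adjusted p = 1.03e-07). Of all genes tested, 1.24% had a lower log2 change than TNC with WT-MyoD and 6.60% with VP64-MyoD.

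TNXB was at 510.2 and 476.5 CPM in untreated libraries, 458.5 and 705.5 in WT-MyoD libraries, and 7.82 and 8.70 in VP64-MyoD libraries. The 2 VP64-MyoD libraries lay far below the 4 others, and the WT-MyoD libraries fell on both sides of the untreated ones. With VP64-MyoD it was 59.6-fold lower than in untreated cells, a log2 change of -5.90 (SE 0.172, edgeR adjusted p = 1.09e-13), and 70.3-fold lower than with WT-MyoD, a log2 change of -6.13 (SE 0.173, edgeR adjusted p = 2.87e-13). Of all genes tested, 0.0634% had a lower log2 change with VP64-MyoD against untreated cells. With WT-MyoD the log2 change was 0.24 (95% interval -0.04 to 0.52, edgeR adjusted p = 0.153). This value rested on the WT-MyoD libraries: it was 0.51 without WT-MyoD replicate 1 (edgeR adjusted p = 1.03e-08), and over all alternatives it ran from -0.09 to 0.51, with adjusted p from 1.03e-08 to 0.513. HSPG2 and LRP1, named here after their values were seen, were also lower in WT-MyoD replicate 1 than in replicate 2, at 2688 and 4146 CPM for HSPG2 and 3248 and 4980 CPM for LRP1, and what sets these 2 libraries apart was not tested.

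TNXB has a partial copy, the pseudogene TNXA, next to it, and reads from the copied part could be placed on either. The long TNXB row had 479.8 and 449.2 CPM in untreated libraries, 426.7 and 667.3 in WT-MyoD libraries, and 7.09 and 7.94 in VP64-MyoD libraries. The short TNXB row had 30.39 and 27.31, 31.82 and 38.19, and 0.731 and 0.763 CPM, and the TNXA row had 19.17 and 17.00, 19.81 and 25.93, and 0.516 and 0.458 CPM. All 3 rows were low in the VP64-MyoD libraries. TNXA fell with VP64-MyoD, with a log2 change of -5.21 (SE 0.192, edgeR adjusted p = 2.05e-12), and rose with WT-MyoD, with a log2 change of 0.33 (SE 0.117, edgeR adjusted p = 0.0285). For reads of the copied part, which counts of these 3 rows came from which gene is uncertain, and this includes the long row. The long row alone held most of the TNXB counts. CYP21A2 overlaps TNXB on the other strand and had 0 to 34 counts per library, and the libraries do not mark the strand.

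**Figure D3:**
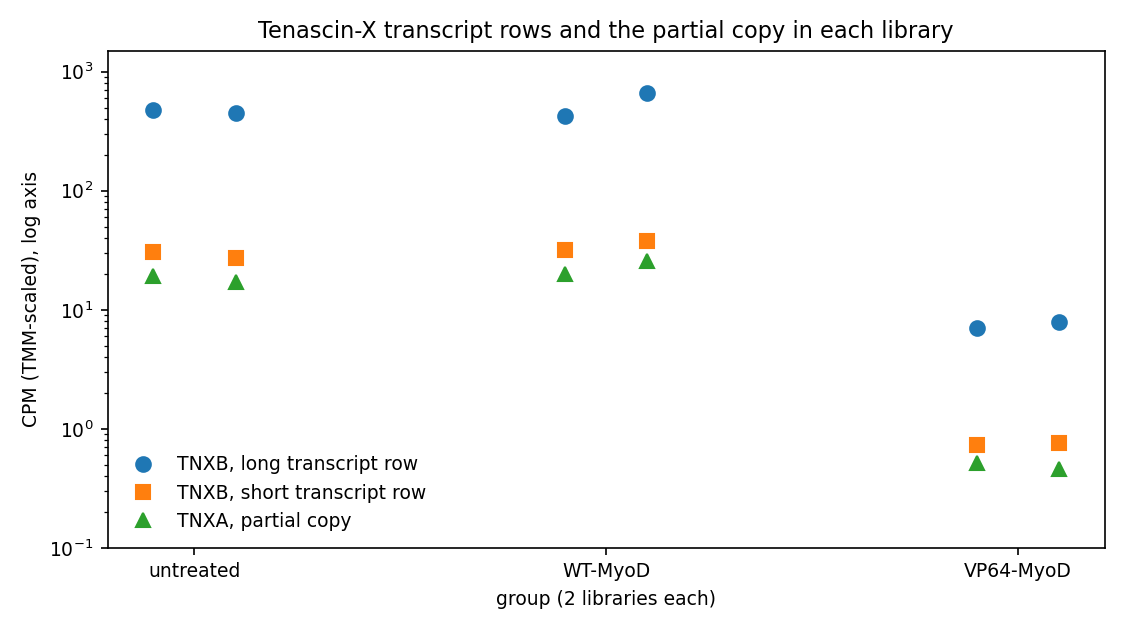
Level of the long and short TNXB transcript rows and of the partial copy TNXA (vertical axis, TMM-scaled CPM, log axis) in the 2 libraries of each group. All 3 rows drop in the VP64-MyoD libraries, the long row from between 426.7 and 667.3 CPM in the other 4 libraries to 7.09 and 7.94 CPM.

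Periostin supports collagen crosslinking and binds integrins, and osteopontin is a phosphorylated protein of bone, macrophages and healing wounds that binds integrins and CD44. These were the 2 members that fell with WT-MyoD and rose with VP64-MyoD.

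POSTN was at 3834 and 3980 CPM in untreated libraries, 1980 and 1877 in WT-MyoD libraries, and 5293 and 5224 in VP64-MyoD libraries. The 3 groups were apart, with the untreated libraries in the middle. It fell with WT-MyoD by 1.02 on the log2 scale (SE 0.072, edgeR adjusted p = 7.87e-09) and rose with VP64-MyoD, with a log2 change of 0.43 (SE 0.071, edgeR adjusted p = 8.53e-05). The direct comparison of the forms gave a 2.73-fold higher level with VP64-MyoD, a log2 change of 1.45 (SE 0.073, edgeR adjusted p = 1.71e-10). POSTN has 4 transcript rows, each with 449 to 534 CPM in the WT-MyoD libraries, 924 to 1063 CPM in the untreated and 1253 to 1425 CPM in the VP64-MyoD ones. How the counter divided reads shared by these rows is not given, so their like order is not 4 separate results. The 5 smooth muscle markers, which myofibroblasts of scars also express, summed to 1086 to 1091 CPM in untreated, 525 to 540 in WT-MyoD and 1313 to 1340 in VP64-MyoD libraries. Most of this sum was ACTA2 and TAGLN, both lower with WT-MyoD and higher with VP64-MyoD. CNN1 was lower with both forms, at means of 29.47, 1.89 and 5.47 CPM, and SMTN higher with both, at 41.84, 70.17 and 144.0 CPM. MYH11 was not called with either. Of these 5, all tested, 1 was higher and 3 lower with WT-MyoD and 3 higher and 1 lower with VP64-MyoD, and their part in the change of POSTN was not tested.

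SPP1 was at 3.09 and 3.14 CPM in untreated libraries, 1.70 and 1.56 in WT-MyoD libraries, and 7.48 and 7.29 in VP64-MyoD libraries. These levels were low, from 154 and 138 counts in the untreated libraries, 96 and 64 in WT-MyoD libraries, and 348 and 382 in VP64-MyoD libraries, and the groups did not overlap. SPP1 fell with WT-MyoD by 0.93 on the log2 scale (SE 0.169, edgeR adjusted p = 0.000277). With the transcript row of most counts alone, that log2 change was -0.70 (edgeR adjusted p = 0.136). With VP64-MyoD it rose 2.37-fold, with a log2 change of 1.25 (SE 0.144, edgeR adjusted p = 1.85e-06), and between the forms it was 4.52-fold higher with VP64-MyoD (log2 change 2.17, SE 0.156, edgeR adjusted p = 1.13e-08).

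Markers of the cells best known for osteopontin were read beside SPP1. The 6 bone markers summed to 21.8 to 22.8 CPM in untreated, 18.9 to 20.8 in WT-MyoD and 55.4 to 56.4 in VP64-MyoD libraries, DMP1 was at 0 in all of them, and 3 of the 6 passed the filter. Of these 3, 2 were higher and 1 lower with WT-MyoD, and 2 were higher with VP64-MyoD. ALPL, alkaline phosphatase, was at 0.64 and 1.04, 3.18 and 2.87, and 30.61 and 30.76 CPM, and was higher with both forms. RUNX2 made up most of the sum in untreated and WT-MyoD libraries. Its means were 21.34, 16.33 and 25.08 CPM, lower with WT-MyoD and higher with VP64-MyoD. SP7 had low means of 0.020, 0.340 and 0.062 CPM, higher with WT-MyoD and not called with VP64-MyoD. By library totals alone, 2 of the 3 were higher and 0 lower with WT-MyoD. The 5 macrophage and blood markers summed to 71.7 to 72.8, 178 to 183 and 52.9 to 53.9 CPM, nearly all of it CD68, a lysosomal protein that fibroblasts also make. Of these 5, all tested, 2 were higher and 1 lower with WT-MyoD, and 1 was higher and 2 lower with VP64-MyoD. The part of such cells in the change of SPP1 was not tested.

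SPARC binds collagen and helps cells to process and deposit it. It was at 3340 and 3730 CPM in untreated libraries, 2481 and 2617 in WT-MyoD libraries, and 3854 and 3595 in VP64-MyoD libraries. The WT-MyoD libraries lay below all others, and the untreated and VP64-MyoD libraries overlapped. SPARC fell with WT-MyoD by 0.47 on the log2 scale (SE 0.078, edgeR adjusted p = 0.000119) and, set against that group, was higher with VP64-MyoD, at a log2 change of 0.55 (SE 0.078, edgeR adjusted p = 2.47e-05). Its change with VP64-MyoD against untreated cells was 0.08 (95% interval -0.09 to 0.24, edgeR adjusted p = 0.419). Scaled by library totals alone that change was 0.26 (edgeR adjusted p = 0.000905), and over all alternatives its adjusted p ran from 0.000905 to 0.966.

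**Figure D4:**
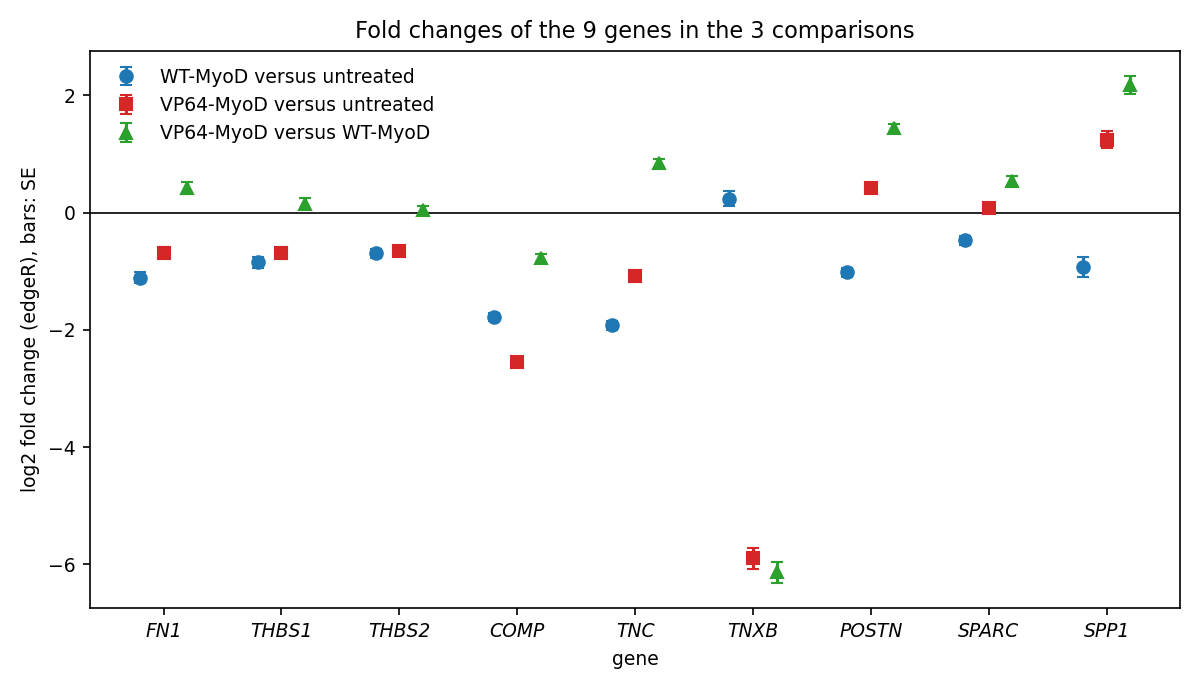
log2 fold change (vertical axis, bars are SE) of each of the 9 genes in WT-MyoD against untreated (circles), VP64-MyoD against untreated (squares) and VP64-MyoD against WT-MyoD (triangles). TNXB stands near -6 in both comparisons with VP64-MyoD, and POSTN and SPP1 have circles below 0 and squares above 0.

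Per kilobase of transcript, which allows levels of different genes to be compared, FN1 was highest in all 3 groups, at 7882 ± 445 (SD, n = 2) CPM per kilobase in untreated, 3659 ± 435 in WT-MyoD and 4860 ± 303 in VP64-MyoD cells. In untreated cells THBS1 at 1333 ± 79 and POSTN at 1215 ± 32 came next, followed by SPARC at 955 ± 75. Below these came TNC at 412 ± 6.1, THBS2 at 399 ± 7.1, COMP at 339 ± 12, TNXB at 44.6 ± 2.3 and SPP1 at 2.42 ± 0.12. In these cells the libraries of TNC (408.0 and 416.7) and THBS2 (393.7 and 403.8) lay close but did not overlap, and all other neighbours in this order were further apart. With WT-MyoD the order below FN1 began with THBS1 at 742 ± 111, SPARC at 689 ± 26 and POSTN at 600 ± 23. The libraries of THBS1 (663.5 and 820.0) overlapped those of SPARC (670.2 and 707.1), so their order was within the spread. TNC at 109 ± 7.5 and COMP at 98.6 ± 6.4 also lay together there, the lower TNC library at 103.9 and the higher COMP library at 103.2. With VP64-MyoD POSTN came second at 1635 ± 15, ahead of SPARC at 1006 ± 50 and THBS1 at 827 ± 52, and TNXB came last at 0.811 ± 0.053, below SPP1 at 5.67 ± 0.18. Dividing by each gene's longest transcript left all ranks as they were, and with the shortest, TNXB stood sixth with WT-MyoD at 186.2 ± 56, ahead of TNC and COMP.

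**Figure D5:**
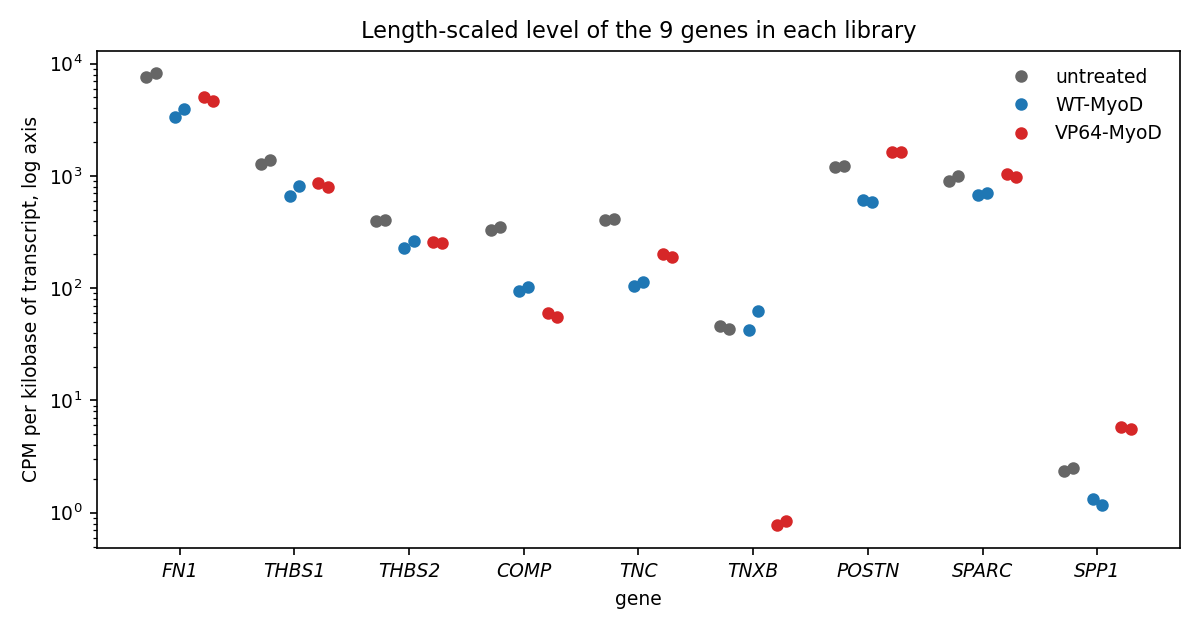
Level per kilobase of transcript (vertical axis, CPM per kilobase, log axis) of the 9 genes in the 2 libraries of each group. FN1 lies highest in all groups, POSTN is second in the VP64-MyoD libraries, and TNXB is the lowest of the 9 there at 0.774 and 0.849.

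Other members of the same families were read from a list of 15, of which 7 passed the count filter. Of these 7, 3 were higher and 4 lower with WT-MyoD, 3 higher and 3 lower with VP64-MyoD, and 3 higher and 3 lower in VP64-MyoD against WT-MyoD, with median log2 changes of -0.20, 0.47 and -0.33. By library totals alone, the first 2 splits were 3 higher and 3 lower, and 4 higher and 3 lower. TGFBI, the closest relative of periostin, was at 1528 and 1533 CPM in untreated, 1186 and 1114 in WT-MyoD, and 3141 and 2860 in VP64-MyoD libraries. It fell with WT-MyoD (log2 change -0.41, SE 0.073, edgeR adjusted p = 0.000222) and rose with VP64-MyoD (0.97, SE 0.074, edgeR adjusted p = 1.44e-08), the same 2 directions as POSTN. FSTL1, of the SPARC family, went from a mean of 2875 CPM to 1518 with WT-MyoD and 1770 with VP64-MyoD, and SPOCK1, a testican of that family, from 1225 to 424.5 and 631.3, and both fell with each form. SPOCK2 was at 0.370 CPM in untreated, 8.96 in WT-MyoD and 0.671 in VP64-MyoD cells, and was higher with WT-MyoD than in either other group (log2 change against untreated 4.61, SE 0.25, edgeR adjusted p = 2.95e-10).

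SPARCL1 had 0 counts in the untreated libraries, 68 and 58 in WT-MyoD libraries, and 8 and 6 in VP64-MyoD libraries. Set against 3 read pairs in the untreated group, the floor for a count of 0, it was at least 20.4-fold higher with WT-MyoD. THBS3 fell with both forms, from a mean of 85.58 CPM to 74.62 and 53.96 (edgeR adjusted p = 0.0162 and 2.06e-07). The fall with WT-MyoD was small, at a log2 change of -0.198, which was the median of the 7 tested relatives. By library totals alone that median was -0.025, so this fall depends on the scaling. THBS4 had means of 1.19, 2.06 and 1.66 CPM, with a log2 change of 0.81 with WT-MyoD (SE 0.251, edgeR adjusted p = 0.0149) and of 0.47 with VP64-MyoD (SE 0.258, edgeR adjusted p = 0.122).

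Receptors of these glycoproteins, integrin subunits, syndecans, CD36, CD44, CD47 and others, formed a list of 23, of which 22 were tested. With WT-MyoD 9 were higher and 8 lower, with VP64-MyoD 10 and 9, and between the forms 9 and 11, at medians of -0.10, -0.02 and -0.14; by library totals alone the first 2 medians turned to 0.07 and 0.16. ITGB6, the integrin subunit that with alpha-v binds fibronectin, tenascin-C and latent TGF-beta, was at 0 and 0.045 CPM in untreated, 3.60 and 3.31 in WT-MyoD, and 23.77 and 20.19 in VP64-MyoD libraries. Its level with VP64-MyoD was above that with WT-MyoD (log2 change 2.66, SE 0.138, edgeR adjusted p = 2.42e-10). SDC4, a fibronectin coreceptor, fell from a mean of 155.1 CPM to 87.03 with WT-MyoD and 43.94 with VP64-MyoD, and EGFR fell from 203.0 to 153.4 and 88.17. ITGA3, a laminin receptor subunit that also binds THBS1, rose from 90.25 and 85.89 CPM in untreated libraries to 233.4 and 268.6 in WT-MyoD libraries and 204.7 and 186.9 in VP64-MyoD libraries. CD44, the hyaluronan and osteopontin receptor, rose from 567.4 to 1288 and 845.0. CD36, a THBS1 receptor, rose from 0.833 to 7.05 and 3.89, and CD47, another one, from 69.86 to 138.1 and 83.30. ITGA4 fell from 380.8 to 184.3 and 211.7, and ITGB8 had means of 5.15, 8.46 and 2.83 CPM, so that it rose with WT-MyoD and fell with VP64-MyoD (edgeR adjusted p = 0.000574 and 0.000171).

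Matrix proteins that bind the members, with enzymes of matrix assembly, formed a list of 18, of which 17 were tested. With WT-MyoD 2 were higher and 13 lower, with VP64-MyoD 1 was higher and 13 lower, and between the forms 7 were higher and 8 lower with VP64-MyoD, at medians of -0.77, -0.68 and -0.22. ELN, elastin, fell from a mean of 1179 CPM to 134.8 with WT-MyoD and 23.97 with VP64-MyoD, and FBLN1, fibulin-1, which binds fibronectin, fell from 861.3 to 360.1 and 154.0. TGM2, an enzyme that crosslinks fibronectin, fell from 654.7 to 150.6 and 266.7 CPM. COL5A1, a collagen chain that starts fibrils, fell from 2907 to 1044 and 2399 CPM. Its fall with VP64-MyoD was small, at a log2 change of -0.28 (SE 0.082, edgeR adjusted p = 0.00816). By library totals alone, the list's split with VP64-MyoD was 2 higher and 12 lower. COL5A1 also differed between the forms (log2 change 1.20 in favour of VP64-MyoD, SE 0.083, edgeR adjusted p = 7.51e-09). DCN, decorin, a small proteoglycan that binds collagen and thrombospondin, rose with WT-MyoD and fell with VP64-MyoD, at means of 974.6, 1543 and 375.2 CPM (edgeR adjusted p = 5.71e-07 and 8.01e-11).

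Proteases that cut the members, with genes that act on such proteases, formed a list of 15, of which 14 were tested. With WT-MyoD 7 were higher and 6 lower, with VP64-MyoD 6 and 8, and between the forms 5 and 6, at medians of 0.04, -0.32 and -0.20. PLAU, urokinase, which activates plasmin, rose from a mean of 29.69 CPM to 207.1 with WT-MyoD and 401.5 with VP64-MyoD, and MMP1, interstitial collagenase, rose from 23.90 to 126.2 and 312.0. ADAMTS1, which cuts thrombospondins, fell from 546.5 to 235.2 and 95.14 CPM. ADAMTS4, which cuts COMP and aggrecan, rose from 7.31 to 10.84 and 54.16, and ADAMTS12, another COMP-cutting enzyme, had means of 81.77, 38.87 and 142.6 CPM.

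Transcription factors and ligands known to act on the members formed a list of 25, all tested. With WT-MyoD 8 were higher and 11 lower, with VP64-MyoD 8 and 13, and between the forms 9 and 9, at medians of -0.12, -0.16 and 0.06; by library totals alone the first 2 medians turned to 0.05 and 0.03, and the lower calls to 7 and 5. TGFB2, a TGF-beta ligand, rose from 3.41 and 4.04 CPM in untreated libraries to 10.91 and 11.14 in WT-MyoD libraries and 49.39 and 50.53 in VP64-MyoD libraries. Its receptor TGFBR2 rose with WT-MyoD and fell with VP64-MyoD, at means of 562.2, 777.7 and 343.0 CPM, and SMAD3, which carries the signal to the nucleus, did the same at 131.3, 217.8 and 103.9 CPM (edgeR adjusted p = 1.42e-07 and 0.000366). WWTR1, the TEAD coactivator TAZ, rose from 231.7 to 317.2 and 545.9 CPM, and EGR1, an immediate early factor, from 92.85 to 198.5 and 150.7. TWIST2, a mesenchymal factor, fell from 51.12 to 29.34 and 12.99 CPM, and TWIST1 had means of 17.23, 19.31 and 7.32. SOX9, the cartilage factor that acts on COMP, fell from 19.72 to 5.10 and 14.55 CPM. With VP64-MyoD the falls of SMAD3 and SOX9 were small, at log2 changes of -0.34 and -0.44. Scaling by library totals moved the median of all genes up by 0.186 in that comparison, so these 2 falls depend in part on the scaling.

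The genes with levels most like those of each member were found by Euclidean distance between log2 CPM, centred per gene, over the 6 libraries, among 9837 genes. For TNXB they were TNXA, C3, the complement component, and CHRM2, a muscarinic receptor, at distances of 0.816, 0.982 and 1.55. Those distances were larger than for the other members, whose nearest genes lay at 0.044 to 0.258. The distances were not scaled by the size of a gene's changes, which with VP64-MyoD was largest for TNXB. Reads of the copied part could be placed on TNXB or TNXA, so the levels of these 2 genes are not independent. C3 had means of 31.44 CPM in untreated, 20.39 in WT-MyoD and 0.468 in VP64-MyoD cells. The nearest to TNC were SLC6A9, GAS7 and AEBP1, at 0.101, 0.109 and 0.12, and to COMP they were MXRA5, PDE1C and MEGF6, at 0.258, 0.295 and 0.328. AEBP1, a collagen-binding protein, had means of 1737, 462.0 and 779.0 CPM, and MXRA5, a secreted matrix protein, had 2833, 798.4 and 538.4. The nearest to FN1 were PRKAB2, GPCPD1 and ERG, to POSTN they were SPHK1, MIR22HG and ZNF697, and to SPARC they were CCNL2, AGPAT4 and MEX3C. For THBS1 they were IGF2BP1, VDR and DLG3, and for THBS2 they were RCC2, PPARD and ADARB1. SPP1 lay under the level of 10 CPM that this search required.

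The authors' deposited table of comparisons with untreated cells lists 14 transcripts of 6 of the 9 genes, COMP, FN1, POSTN, THBS1, THBS2 and TNC. It holds 3135 transcripts in all. In both comparisons the sign of the fold change in the authors' deposited table was that of the summed gene for 14 of the 14 transcripts. Both come from libraries of the same study, so the like signs are not separate support. For COMP the authors' deposited table gives log2 changes of -1.78 with WT-MyoD and -2.55 with VP64-MyoD, and for POSTN transcript NM_006475 it gives -1.02 and 0.44. Over the 6 FN1 transcripts, the authors' deposited table gives -1.09 to -1.12 with WT-MyoD and -0.62 to -0.82 with VP64-MyoD, with NM_212482, the row that holds the EDB exon, changed the least with VP64-MyoD.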

How the data were processed

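Polyadenylated RNA of 6 libraries was tagmented with a transposase, which does not mark the strand, per the labels' protocols. The submitters' processing notes name Bowtie 0.12.9, CASAVA, DESeq 1.10.1 and build hg19; the counter and its handling of reads with several placements are not given in the sources used here. The deposited table holds raw read counts per RefSeq transcript. The authors' table of comparisons gives, per the file headers, group means of normalized counts (a signal), log2 fold changes and adjusted p-values, which were used only for the values credited to it. Symbols came from the RefSeq gene table (GRCh38.p14) for 39324 of 40710 rows and from GENCODE 29 for 526; 859 rows without a symbol, with 0.601% to 0.743% of counts, stayed in the fits as features of their own.

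Rows were summed per gene and tested with edgeR 4.0.16 in R 4.3.3 (quasi-likelihood test, TMM scaling, filterByExpr with a minimum count of 10 and total of 15, 3 groups in 1 fit, Benjamini-Hochberg adjustment, threshold 0.05). SE is the size of the log2 change over the square root of F. The transgene row was left out of the counts of genes. The alternatives were DESeq2 1.42.0, limma-voom (limma 3.58.1), other size factors, filters and row choices, halved counts, a replicate block and each library left out; scaling by library totals was chosen after seeing the data. The method was checked on simulated data. Replicates are called biological duplicates; the p-values measure the spread between these samples of 1 line. The numbers of the replicates were not taken to pair libraries, as nothing in the labels says what they share. The members and gene lists were chosen with earlier results of these data known. Named genes were all members, all tested relatives, up to 4 genes per list and comparison with the smallest adjusted p and a mean of at least 5 CPM in a group, and the 3 genes nearest each member; other genes are said to be chosen after their values were seen, or stand beside a result as markers. Promoter sequences are RefSeq's. The values of 1 listed gene are not reported here.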

Additional observations from a re-analysis of the deposited data

Results flagged for a closer look

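POSTN and SPP1 changed in opposite directions with the 2 forms of MyoD, each with a call in edgeR's quasi-likelihood test against untreated cells. The direct comparison of the forms comes from the same fit and libraries. Its log2 change follows from those 2 changes, so it gives the size of the difference and is not separate support. POSTN differed between VP64-MyoD and WT-MyoD by a log2 change of 1.447 (SE 0.073, edgeR adjusted p = 1.71e-10), higher in 2 of 2 VP64-MyoD libraries. SPP1 differed by 2.175 (SE 0.156, edgeR adjusted p = 1.13e-08), also higher in 2 of 2, at levels under 8 CPM. Over all alternatives the difference ran from 1.395 to 1.486 for POSTN and from 2.107 to 2.249 for SPP1.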

How the results depend on the processing

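Over the 16 alternatives applied to all genes and the 2 choices of TNXB row, 426 of the values of single members kept their direction and call, 8 gained a call, 1 lost it and 3 without a call changed sign: TNXB with WT-MyoD without WT-MyoD replicate 2 (leave-one-out range -0.092 to 0.513), SPARC with VP64-MyoD without untreated replicate 1 (-0.006 to 0.153) and THBS2 between the forms without WT-MyoD replicate 1 (-0.056 to 0.131). The number of members called higher with WT-MyoD, 0 as reported, was 1 with no filter on low counts and 1 by library totals; leaving out 1 library at a time it ran from 0 to 1, with 1 without WT-MyoD replicate 1. In each of these the gene was TNXB, at log2 changes of 0.237, 0.399 and 0.513, and the short TNXB row alone gave 0.275 (edgeR adjusted p = 0.0247). THBS1 in VP64-MyoD against WT-MyoD gained a call with no filter (0.157, edgeR adjusted p = 0.0171), by library totals (0.176, edgeR adjusted p = 0.0315) and without WT-MyoD replicate 2 (0.304, edgeR adjusted p = 0.000713), SPARC with VP64-MyoD by library totals, and SPP1 with WT-MyoD lost its call when 1 row was used. Library totals moved the median log2 change of all genes by 0.173 with WT-MyoD, 0.186 with VP64-MyoD and 0.013 between the forms. With a replicate block the members called were 0 higher and 8 lower, 2 and 6, and 5 and 2, as without it; same-numbered libraries deviated from their group means with correlations of 0.102, 0.03 and -0.08 over 9209 genes. Where not given here, the cause was not tested. SPP1 had 64 to 382 counts per library, which limits its precision.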
